A study of Mus musculus with 28 samples.

Results

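Of the 2671 SIRT7 binding peaks that the authors listed for GS cells, 639 (23.9%) stood alone in unmarked chromatin at a short distance from marked chromatin, and these 639 peaks are described here. They were chosen by measured values: the positions in the GS peak list and the chromatin states of the WT-GS segmentation. A member lay on chromosomes 1 to 19, had most of its bases in state U1 of WT-GS, had no other GS peak midpoint within 100 kb of its own midpoint, and had a bin of state U2, U3 or U4 of WT-GS less than 50 kb from that midpoint. Of the 1941 autosomal GS peaks in U1, 1275 were lone by this rule. The other 636 lone peaks lay 50 kb or more from marked chromatin, 666 U1 peaks were clustered with another GS peak, and 331 autosomal peaks lay mostly inside U2, U3 or U4.

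SIRT7 is a nuclear enzyme of the sirtuin family that uses NAD to remove acyl groups from histones and other proteins, and it is best known from work on ribosomal DNA, chromatin and stress. H3K27me3 is the methyl mark that Polycomb repressive complex 2 places on histone H3, and it is known from repressed genes. macroH2A1.1 is a variant of histone H2A with a large globular macrodomain that can bind ADP-ribose, and it is also known mostly from repressed chromatin. The series title concerns ADP-ribosylation of SIRT7 by itself, glucose starvation and macroH2A1.1.

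All cells were primary mouse embryonic fibroblasts (MEFs), connective-tissue cells cultured from embryos, of strain 129s2, from embryos of day 14.5 and at passages 3 to 4. The chromatin marks were measured in SirT7-/- (KO) and wild-type (WT) cells, each under the treatments GS and NT, which the labels do not spell out. H3K27me3 and macroH2A1.1 (mH2A1) were precipitated in 2 libraries each for KO-GS, WT-GS, KO-NT and WT-NT, and SIRT7 in 2 libraries each for WT-GS and WT-NT. Of the 28 libraries in all, 20 were ChIP and the others input. No SIRT7 ChIP from KO cells was used here, so binding that does not depend on SIRT7 could not be recognised among the members, and the KO label could not be checked. The labels do not say whether the replicate libraries came from separate embryos or cultures.

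Each SIRT7 list and each segmentation stood for both replicates of its targets. No value below therefore has a replicate error, and no test between genotypes or treatments was possible. The depth behind the lists and segmentations is unknown. A segmentation gives each 200 bp bin 1 of 4 states, U1 to U4, built per the labels from H3K27me3 and mH2A1. The sources used here do not give what a state means or whether it was defined alike in the 4 segmentations, and U2, U3 and U4 together are called marked. Coordinates are those of the mouse build mm9, counted from 1. No gene annotation or sequence of that build was used here, so regions are given by position. Intervals are Wilson 95% intervals, unless stated otherwise, and cover counting error only.

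The members were narrow. Their lengths ran from 258 to 5075 bp with a median of 1220 bp (95% order-statistic interval 1145 to 1294), and together they covered 892 kb. Their scores, the authors' own values that rank peaks within a list and stop at 1000, ran from 537 to 1000 with a median of 632 (interval 623 to 639). Of the 26 GS peaks with a score of 1000, 7 were members. The distance to the next GS peak was at least 100.1 kb by the rule and had a median of 461 kb, up to 13179 kb. The nearest other GS peak was another member for 254 of them, a lone peak far from marks for 167, a peak inside marked chromatin for 126 and a clustered peak for 92. Of the 2272 autosomal GS peaks, these classes held 639, 636, 331 and 666 in that order. The rule limits which peaks can be neighbours, and no excess of a class was tested.

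The members sat closer to marked chromatin than the 50 kb limit asked for. In WT-GS, whose distances chose the members, the median distance from the midpoint to the nearest marked bin was 7.17 kb, against 12.1 kb over all 4667756 autosomal U1 bins of WT-GS that lie less than 50 kb from marked chromatin (934 Mb). These bins are counted in full, not sampled, and serve as the background below. They are wider than the sequence open to a member, since they include sequence within 100 kb of other GS peaks, among them 290 clustered U1 peaks, and single bins at the edge of a mark. Within 2 kb of a mark lay 146 members (22.8%) and 14.0% of the bins. Between 2 and 5 kb lay 137 members (21.4%) and 14.7% of the bins. At 20 to 50 kb the order was the other way, with 171 members (26.8%) and 34.2% of the bins. The values for WT-GS are a description, since the rule used them.

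In the segmentations that the rule did not use, the distances were of the same order. The median distance of the members was 11.4 kb in KO-GS (order-statistic interval 8.85 to 13.6), 12.4 kb in KO-NT (9.59 to 14.9) and 8.26 kb in WT-NT (6.99 to 10.6), with overlapping intervals. Over the same WT-GS bins the medians were 15.5 kb in KO-GS, 17.1 kb in KO-NT and 13.5 kb in WT-NT, so in each of these 3 segmentations the members lay closer to marked chromatin than the bins did. The distance in WT-GS followed that in the others across the members, with a Spearman rho of 0.75 for KO-GS, 0.74 for KO-NT and 0.74 for WT-NT (n = 639). These coefficients are across peaks that share the same segmentations and are a description.

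**Figure D1:**
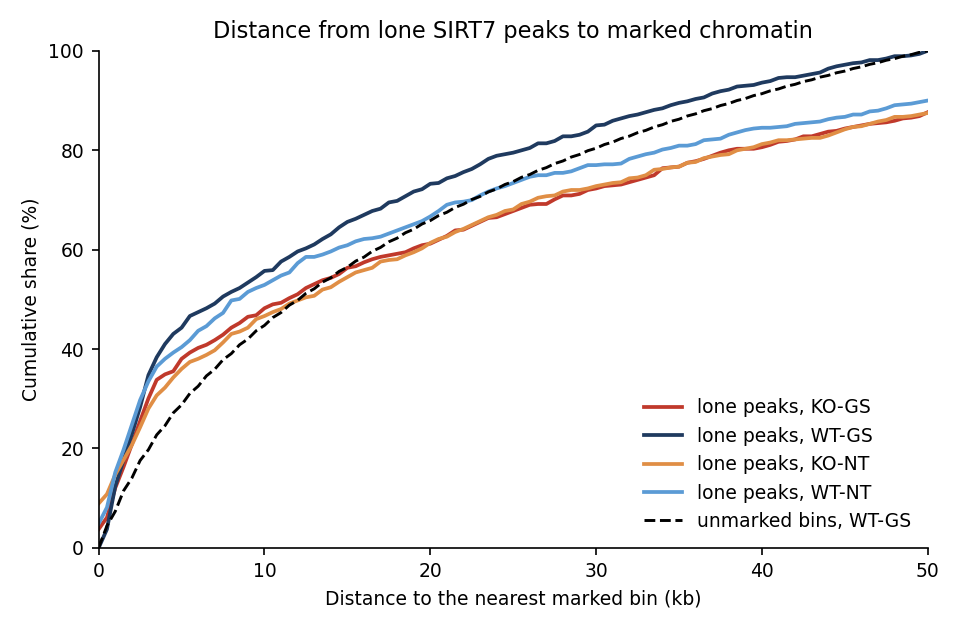
Cumulative share of the 639 lone SIRT7 peaks (percent, y axis) against the distance from the peak midpoint to the nearest marked bin (kb, x axis) in KO-GS, WT-GS, KO-NT and WT-NT, with all WT-GS U1 bins less than 50 kb from marks as a dashed line. All 4 peak curves lie above the dashed line from 1 to 3 kb, while at 0.5 kb the WT-GS curve, at 3.76%, lies below it, at 4.44%. The dashed line holds WT-GS distances, and the distances of the bins in the other segmentations are not drawn. At 0.5 kb those bins reach 7.32% in KO-GS (peaks 6.10%), 6.66% in KO-NT (peaks 10.8%) and 10.6% in WT-NT (peaks 8.14%). At 50 kb the peak curves reach 87.6% in KO-GS, 100% in WT-GS by the rule, 87.5% in KO-NT and 90.0% in WT-NT.

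Marked chromatin lay less than 50 kb away for 560 members in KO-GS (87.6%, 84.9 to 90.0), for 559 in KO-NT (87.5%, 84.7 to 89.8) and for 575 in WT-NT (90.0%, 87.4 to 92.1). Of the same bins, 89.1% had marked chromatin that close in KO-GS, 87.7% in KO-NT and 91.7% in WT-NT, so these shares were near the background. It was that close in all 3 of these segmentations for 517 members (80.9%) and in none of them for 32 (5.01%). The same joint shares of the bins were not computed. At 100 kb or more from any mark lay 40 members in KO-GS, 42 in KO-NT and 36 in WT-NT. These are places where WT-GS carried a mark that another segmentation lacked over a long stretch. The rule asked for a mark under 50 kb in WT-GS only. The share of the bins at 100 kb or more was not computed, so an excess over the background was not tested.

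The 5 members farthest from marks in the other segmentations, by summed distance, all had U2 as the nearest mark in WT-GS. The farthest was on chromosome 15 from 46729815 to 46730991, with a score of 696. The nearest mark to its midpoint was 1689 kb away in KO-GS, 18.6 kb in WT-GS, 1671 kb in KO-NT and 408 kb in WT-NT. In WT-GS that mark was a U2 bin in a marked run of 18.2 kb. On chromosome 1, the peak from 116975932 to 116977393 lay 1038 kb from a mark in KO-GS, 19.5 kb in WT-GS, 1037 kb in KO-NT and 990 kb in WT-NT. The WT-GS run beside it was 5.4 kb long. The other 3 were the peaks at 54988216 to 54988733 of chromosome 17, at 5338288 to 5339485 of chromosome 9, and at 27905024 to 27905592 of chromosome 16. They were 433 to 536 kb from a mark in KO-GS, 1.71 to 23.3 kb in WT-GS, 389 to 507 kb in KO-NT and 426 to 500.5 kb in WT-NT. Their WT-GS runs were 1.4 to 10 kb long, and these 5 members had state U1 in each segmentation.

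At the limit of 50 kb, the 3 members just inside it lay 49.6 kb (chromosome 12 from 6876175 to 6876628), 49.6 kb (chromosome 7 from 24809379 to 24809800) and 49.7 kb (chromosome 4 from 20304416 to 20304959) from a mark in WT-GS. The 3 lone peaks just outside it lay 50.0 kb (chromosome 4 from 18167253 to 18168353), 50.0 kb (chromosome 16 from 13375157 to 13375584) and 50.3 kb (chromosome 9 from 8800451 to 8801692) away. The limit thus divides neighbouring distances. In KO-GS the member on chromosome 12 lay 514 kb from any mark, and the outside peak on chromosome 4 lay 0.603 kb from a U3 bin.

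Which state was nearest also varied. In WT-GS the nearest marked bin was U2 for 335 members (52.4%, against 55.1% of the bins), U3 for 255 (39.9%, against 38.8%) and U4 for 49 (7.67%, against 6.09%). Among the 146 members within 2 kb of a mark U2 was nearest for 34.9%, and among the 112 at 10 to 20 kb for 62.5%. The shares of the bins by distance were not computed, so whether this contrast was particular to the members was not tested. Marks lay less than 50 kb away on both sides of 368 members (57.6%, 53.7 to 61.4) and of 47.4% of the bins. Only 43 members touched a marked bin in WT-GS at all, the most with 45.7% of their bases.

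Averaged over the members, the share of marked sequence fell towards the midpoint in every segmentation. Within 50 kb on each side 20.8% of the sequence was marked in KO-GS, 27.3% in WT-GS, with 22.1% in KO-NT and 26.2% in WT-NT. Within 10 kb the means were 14.0% in KO-GS, 17.5% in WT-GS, with 15.2% in KO-NT and 18.95% in WT-NT. Most of the marked sequence, and most of the difference between segmentations, was U2, at 14.1% in KO-GS, 20.4% in WT-GS, with 15.6% in KO-NT and 19.3% in WT-NT within 50 kb, whereas U3 held 5.82% in KO-GS, 6.10% in WT-GS, with 5.93% in KO-NT and 5.93% in WT-NT. The low point for WT-GS follows from the rule, which asked for U1 there. Of the background bins, 95.0% were also U1 in KO-GS, 95.2% in KO-NT and 91.9% in WT-NT. No such profile was made for the bins, so whether the fall was particular to the members was not tested.

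**Figure D2:**
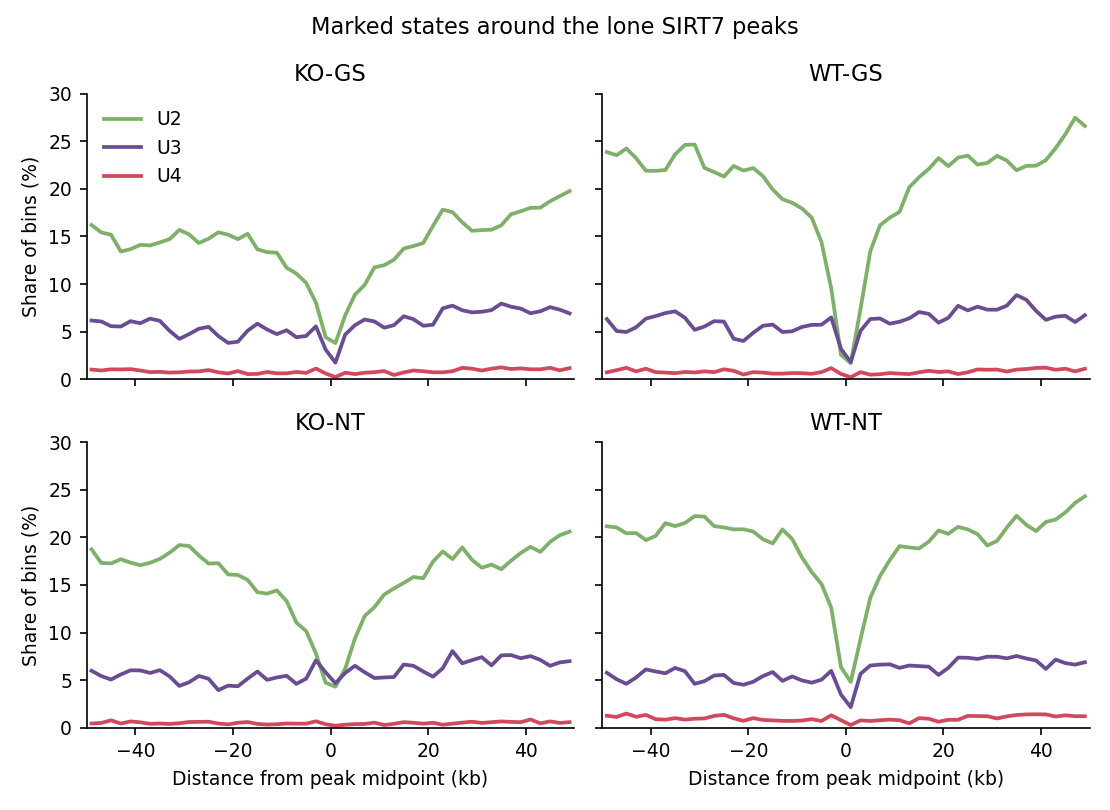
Mean share of bins in U2, U3 and U4 (percent, y axis) in 2 kb windows by distance from the midpoint of the 639 peaks (kb, x axis), in KO-GS, WT-GS, KO-NT and WT-NT. U2 has a dip of about 10 kb on each side in all 4. U3 dips in the central 4 kb in KO-GS, WT-GS and WT-NT. In the 2 central windows U3 is 3.11% and 1.75% in KO-GS, against 5.82% and 4.68% in KO-NT. In KO-NT some windows farther out are lower than these, as at -23 kb with 3.96%.

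Most members were unmarked in every segmentation. Most of the bases were U1 in 615 members in KO-GS (96.2%, 94.5 to 97.5), in 582 in KO-NT (91.1%, 88.6 to 93.1) and in 608 in WT-NT (95.1%, 93.2 to 96.6). Of the bins, 95.0% were U1 in KO-GS, 95.2% in KO-NT and 91.9% in WT-NT. U1 in both KO-GS and KO-NT were 567 members (88.7%) and 91.8% of the bins. In all 4 segmentations 555 members (86.9%) were U1, and the share of the bins was not computed. In KO-GS 24 members were marked (3.76%, 2.54 to 5.53), against 4.96% of the bins. In KO-NT 57 members were marked (8.92%, 6.95 to 11.4), against 4.79% of the bins. In WT-NT 31 members were marked (4.85%, 3.44 to 6.80), against 8.09% of the bins. Among these 3 segmentations KO-NT had the most marked members, while its share of marked bins was slightly below that of KO-GS and below that of WT-NT.

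State U3 accounted for this order. In KO-GS 2 members were U3 (0.313%, 0.0859 to 1.13), against 1.14% of the bins. In KO-NT 30 members were U3 (4.69%, 3.31 to 6.62), against 0.985% of the bins, so the members' share was above the background there and below it in KO-GS. In WT-NT 2 members were U3 (0.313%), against 1.29% of the bins. U2 was found at 22 members in KO-GS (3.44%, against 3.74% of the bins), at 27 in KO-NT (4.23%, against 3.77%) and at 29 in WT-NT (4.54%, against 6.69%). U4 was found at 0 of 639 members in each, which allows a share of up to 0.469% taken as 3 counts, or 0.598% as the Wilson upper limit. U4 held 0.0816% of the bins in KO-GS, 0.0392% in KO-NT and 0.106% in WT-NT, so a count of 0 was near the background. Of the clustered U1 peaks, 290 also lay less than 50 kb from marks in WT-GS, and of these 0 were U3 in KO-GS, 11 in KO-NT (3.79%) and 1 in WT-NT (0.345%). Their share in KO-NT was close to the members', and the difference was not tested. None of the 636 lone peaks far from marks was U3 in KO-NT, and 64 of the 331 peaks inside marks were. The difference between KO-NT and the other segmentations was not tested, because each stands for pooled replicates.

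The 30 members that were U3 in KO-NT lay on 14 chromosomes. Of these 30, 26 were U1 in KO-GS, 26 were U1 in WT-NT, and 24 were U1 in all 3 other segmentations. In 23 of them every base lay in marked bins of KO-NT, and the marked run that held the peak in KO-NT was 1.8 to 126.8 kb long with a median of 14.1 kb. In WT-GS their midpoints lay 0.177 to 3.33 kb from a mark, with a median of 1.17 kb. They lay in short unmarked stretches of WT-GS, meaning the U1 sequence between the marked bins on either side, which were 1.8 to 18 kb long with a median of 4 kb. U3 or U4 stood at both ends of that stretch in 21 of the 30. Their median length was 1726.5 bp, against 1177 bp for the other 609 members, and their median score 645, against 631.

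The 3 longest of these 30 peaks are given as examples, and they were picked after their values had been seen. The WT-GS stretch had U3 at both ends for the peaks on chromosomes 15 and 6. For the peak on chromosome 11 it had U2 at both ends. On chromosome 15 from 27051446 to 27054501 a peak of 3056 bp with a score of 635 lay wholly in a 31.2 kb marked run in KO-NT. Its midpoint was 1.97 kb from a mark in KO-GS, 1.57 kb in WT-GS and 1.97 kb in WT-NT, and its unmarked stretch in WT-GS was 4 kb long. On chromosome 6 from 71617374 to 71620375 a peak of 3002 bp with a score of 753 lay in a 50 kb marked run in KO-NT and was 2.27 kb from a mark in KO-GS, 2.13 kb in WT-GS and 1.53 kb in WT-NT. On chromosome 11 from 22577201 to 22580076 a peak of 2876 bp with a score of 570 lay in a 65 kb marked run in KO-NT, 0.639 kb from a mark in KO-GS and 0.439 kb in WT-GS, and it lay inside marked sequence in WT-NT.

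**Figure D3:**
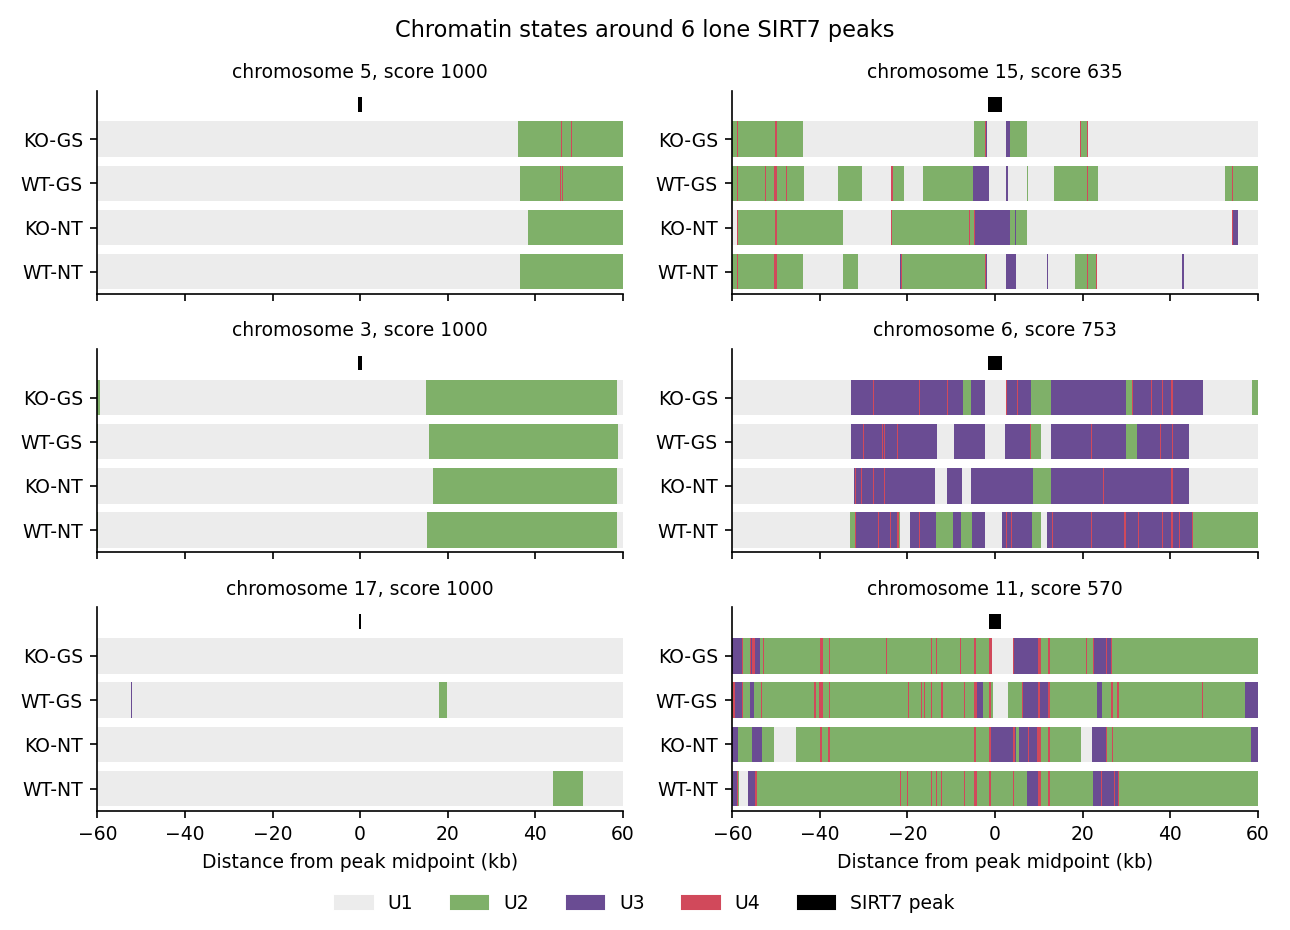
Chromatin states (colours) in KO-GS, WT-GS, KO-NT and WT-NT within 60 kb of the midpoint (x axis, kb) of 6 members, with the peak as a black bar. The left column shows 3 high-scoring members that overlap an NT peak and lie 15.7 to 36.2 kb from a mark in WT-GS; the right column shows the 3 longest members that were U3 in KO-NT, where the unmarked gap at the peak in WT-GS is covered by U3.

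U3 in KO-NT was most frequent at members in short unmarked stretches, in length classes that were set after the values had been seen. The stretch in WT-GS had a median of 51.2 kb over the members and ran from 1.8 to 4289 kb. In stretches under 5 kb lay 51 members (7.98%, 6.12 to 10.3) and 2.63% of the bins. Of these 51, 1 was U3 in KO-GS (1.96%, 0.347 to 10.3), against 11.5% of the bins in such stretches. In KO-NT 23 were U3 (45.1%, 32.3 to 58.6), against 11.7% of the bins. In WT-NT 1 was U3 (1.96%, 0.347 to 10.3), against 13.4% of the bins. In these short gaps the members' share was thus below the background in KO-GS and WT-NT and above it in KO-NT. The bins include those at the very edges of a gap, while a member needed most of its bases in U1. Shares at a matched position in the gap were not computed, so what the rule adds to these differences was not tested. Of the 26 whose stretch had U3 or U4 at both ends, 17 were U3 in KO-NT, and of the 25 with U2 at 1 end or both, 6 were. The 11.7% of the bins covers stretches with any states at their ends, and shares by end state were not computed. Whether the contrast by end state was particular to the members was therefore not tested. Nor was the excess in KO-NT tested against bins with the same end states.

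Of the same 51 members, 18 were U3 in KO-NT and U1 in the other 3 segmentations, and 16 were U1 in all 4. Clustered U1 peaks in such stretches numbered 19, of which 0 were U3 in KO-GS, 3 in KO-NT and 0 in WT-NT. Of the bins in such stretches, 11.5% were U3 in KO-GS, 11.7% in KO-NT and 13.4% in WT-NT. The difference between these few clustered peaks and the members was not tested. In stretches of 5 to 10 kb 3 of 79 members were U3 in KO-NT (3.80%), against 4.10% of the bins. In stretches of 10 to 50 kb 4 of 185 were (2.16%, 0.844 to 5.43), against 0.998% of the bins, and in stretches of 50 kb or more none were. The same held by distance: of the 146 members within 2 kb of a mark in WT-GS, 26 were U3 in KO-NT (17.8%, 12.5 to 24.8), against 5.08% of the bins at that distance. In KO-GS 2 of these 146 were U3 (1.37%), against 5.61% of the bins, and in WT-NT 2 (1.37%), against 6.29%. Position within these 2 kb was not matched either.

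**Figure D4:**
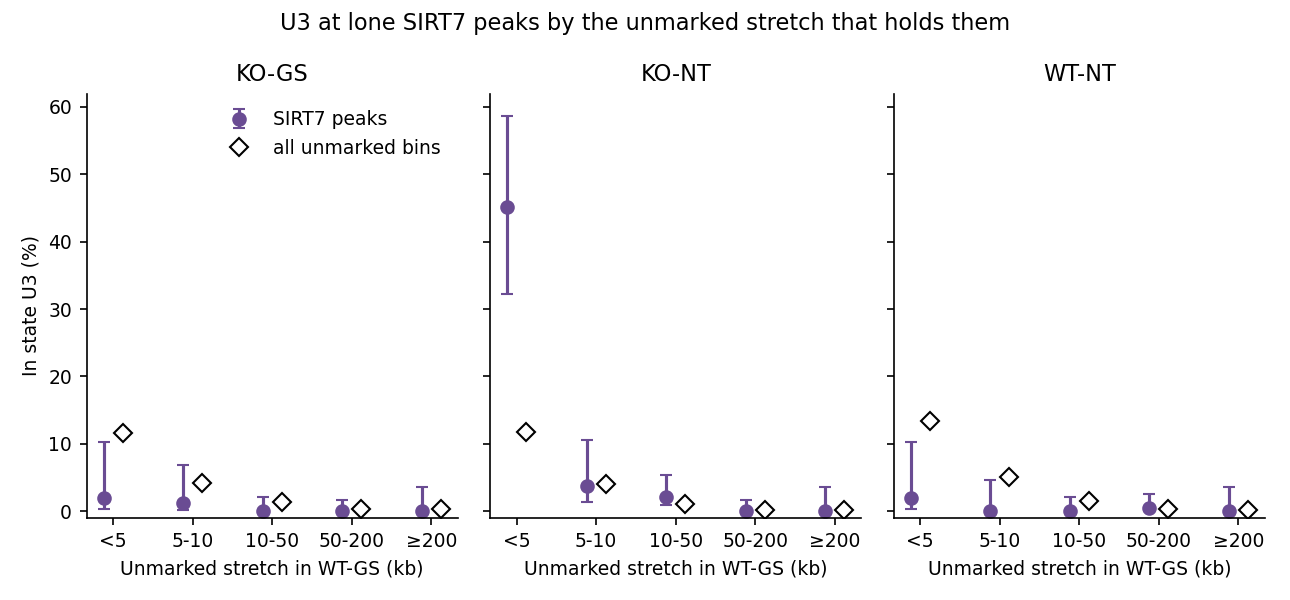
Share of the lone peaks in U3 (percent, filled points with Wilson 95% intervals) and of all unmarked bins in the same class (open diamonds) in KO-GS, KO-NT and WT-NT, by the length of the WT-GS unmarked stretch that holds them (kb, x axis). The point for stretches under 5 kb in KO-NT, at 45.1%, stands above its diamond at 11.7%, and the points for the same class in KO-GS and WT-NT, both at 1.96%, stand below theirs. Position within the stretch was not matched.

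The 5 members most marked in the other segmentations were chosen by the share of their bases in marked bins. On chromosome 1 from 132755519 to 132758218 the peak was wholly marked in the other 3, as U2 in KO-GS, U3 in KO-NT and U2 in WT-NT. On chromosome 9 from 88144010 to 88145657 every base was marked in all 3, as U2, inside runs of 151 to 216 kb. On chromosome 5 from 16403689 to 16404625 it was U3 in KO-GS, U3 in KO-NT and U2 in WT-NT. On chromosome 13 from 81137944 to 81140129 it was U2 in all 3, with 57.5% of its bases marked in KO-NT. On chromosome 2 from 81160927 to 81161711, where the midpoint lay 82 bp from a mark in WT-GS, the closest of all members, it was U1 in KO-GS and U2 in KO-NT and WT-NT. These were 5 of the 24 members marked in more than 1 of the other segmentations, of which 4 were marked in all 3.

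The next closest members to a mark in WT-GS were on chromosome 7 from 137505352 to 137507283, at 83 bp, and on chromosome 5 from 53101958 to 53102604, at 120 bp. Both had state U1 throughout. The peak on chromosome 7, with a score of 853, lay 2.08 kb from a mark in KO-GS, 2.92 kb in KO-NT and 2.92 kb in WT-NT. The peak on chromosome 5 lay 2.68 kb away in KO-GS, 4.68 kb in KO-NT and 0.32 kb in WT-NT.

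The marked run nearest to a member in WT-GS had a median length of 5.8 kb, from 0.2 to 457 kb, against 7.8 kb over all marked autosomal runs of WT-GS. Some part of that run was also marked in KO-GS for 441 members (69.01%), in KO-NT for 416 (65.1%) and in WT-NT for 466 (72.9%). Over all 34818 runs, each counted once, the shares were 77.3% in KO-GS, 72.8% in KO-NT and 82.5% in WT-NT. Length went with this: of the 121 members beside a run under 1 kb, the run was partly marked in 45.5% in KO-GS, 34.7% in KO-NT and 47.9% in WT-NT. Of all runs under 1 kb it was 45.7% in KO-GS, 32.4% in KO-NT and 53.8% in WT-NT. The members' shares were thus near those of all such runs in both KO segmentations and lower in WT-NT. For runs of 1 to 5 kb, beside 174 members, the shares were 52.9% in KO-GS, 43.7% in KO-NT and 58.0% in WT-NT, against 60.9% of all such runs in KO-GS, 50.5% in KO-NT and 68.6% in WT-NT. For runs of 5 to 20 kb, beside 203 members, the shares were 76.8% in KO-GS, 77.3% in KO-NT and 81.8% in WT-NT, against 83.0% of all runs of that length in KO-GS, 82.3% in KO-NT and 89.2% in WT-NT. Of the 141 members beside a run of 20 kb or more, it was partly marked in 97.9% in KO-GS, 100% in KO-NT and 100% in WT-NT. Of all such runs it was 99.3% in KO-GS, 99.3% in KO-NT and 99.7% in WT-NT. All runs were counted once, while a member's run was the one nearest to its midpoint. The runs nearest to the background bins were not taken. Whether a lower share was particular to runs beside members was therefore not tested.

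The GS list has 2671 peaks, against 90 in the NT list, which the rule did not use. Of the members, 8 overlapped an NT peak by at least 1 bp (1.25%, 0.636 to 2.45), against 1.27% of all GS peaks, so the share was near the background. The same held for 7 of the 636 lone peaks far from marks (1.10%), 9 of the 666 clustered peaks (1.35%) and 8 of the 331 peaks inside marks (2.42%). By Fisher's exact test, two-sided, the members did not pass the threshold of 0.05 against any of these, with Benjamini-Hochberg adjusted p of 1, 1 and 0.503 over 9 tests. Fisher's test treats peaks as independent and does not measure variation between cultures. Applied to the NT list with the WT-NT segmentation, the rule found 29 lone peaks near marks among 58 autosomal peaks, but in so sparse a list nearly every peak is lone.

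The 8 members that overlapped an NT peak had GS scores of 820 to 1000, and 5 of them had 1000. These were 37051851 to 37052903 on chromosome 5, 95848325 to 95849134 on chromosome 3, 4626129 to 4626725 and 56339192 to 56339665 on chromosome 17, and 19379764 to 19380089 on chromosome 9. Their NT scores were 1000 for the first 4 and 981 for the peak on chromosome 9. These 5 had state U1 throughout and lay 15.7 to 40.7 kb from a mark in WT-GS. The peak on chromosome 5 lay nearest to a U2 bin, in a marked run of 38.2 to 45.2 kb. The distance hardly differed, at 35.8 kb in KO-GS, 36.2 kb in WT-GS, 38.2 kb in KO-NT and 36.2 kb in WT-NT. For the peak on chromosome 17 at 4626129 it was 94.0 kb in KO-GS, 18.0 kb in WT-GS, 102 kb in KO-NT and 44.0 kb in WT-NT.

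The other 3 that overlapped an NT peak lay closer to marks and were marked in KO-NT. On chromosome 13 from 27297797 to 27298181, with a score of 845 in the GS list and 674 in the NT list, the peak was 5.19 kb from a mark in WT-GS and U2 in KO-NT. On chromosome 14 from 62555199 to 62557874, with scores of 820 and 618, it was 2.14 kb from a mark in WT-GS and U2 in KO-GS and KO-NT, inside runs of 123.4 and 121.8 kb. On chromosome 2 from 17684011 to 17686431, with scores of 858 and 565, it was 1.42 kb from a mark in WT-GS and U3 in KO-NT. Scores of the 2 lists rank peaks within each list and are not compared between them.

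The 10 highest-scoring members comprise the 5 with a score of 1000 and an NT peak, and 5 without an NT peak. Of the 5 without one, 3098576 to 3100574 on chromosome 10 and 90828916 to 90829561 on chromosome 8 scored 1000. The others were 174654038 to 174654739 on chromosome 1 with a score of 995, 16539275 to 16542033 on chromosome 11 with 979, and 106050899 to 106055401 on chromosome 13 with 976. The peak on chromosome 10 lay beside a long marked run in every segmentation, at 2.98 kb from 57.8 kb in KO-GS, 2.98 kb from 69.6 kb in WT-GS, 2.77 kb from 61.4 kb in KO-NT and 2.98 kb from 78 kb in WT-NT. Of the 10, 9 were U1 in all 4 segmentations, and 8 had a mark less than 50 kb away in all 4. The exception in state was the peak on chromosome 11, which was U2 and wholly marked in WT-NT, inside a 76 kb marked run. It lay 4.25 kb from a mark in KO-GS, 2.05 kb in WT-GS and 10.1 kb in KO-NT. U2 was nearest in WT-GS for 7 of the 10.

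Score did not set the members apart. A score above the list's median of 629 was carried by 327 members (51.2%, 47.3 to 55.0), against 49.6% of all GS peaks. It was 48.4% of the lone peaks far from marks, 50.5% of the clustered peaks and 49.2% of the peaks inside marks, and no difference passed (Fisher's exact test, adjusted p of 0.614, 1 and 0.882). Across the members the score varied little with the distance to marks in WT-GS (Spearman rho 0.030, n = 639, a description).

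Longer than the list's median of 1227 bp were 315 members (49.3%, 45.4 to 53.2), against 50.0% of all GS peaks. The members were more often long than the peaks inside marks, of which 131 of 331 were (39.6%, 34.5 to 44.9), with an odds ratio of 1.48 and an adjusted p of 0.0389 by Fisher's exact test. By the same exact test this call was lost with chromosome 1 left out, at 7.58 percentage points and an adjusted p of 0.294. It was lost as well with a lone distance of 200 kb (9.24 points, adjusted p of 0.0946, exact test) and with members whose every base was U1 (2.82 points, adjusted p of 0.67, exact test). Of the lone peaks far from marks 286 (45.0%) were longer than the median and of the clustered peaks 351 (52.7%), and neither differed from the members beyond the threshold (adjusted p of 0.503 in both). By distance, the median length was 1242.5 bp within 2 kb of a mark, 1587 bp at 2 to 5 kb and 1093 to 1140 bp beyond.

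**Figure D5:**
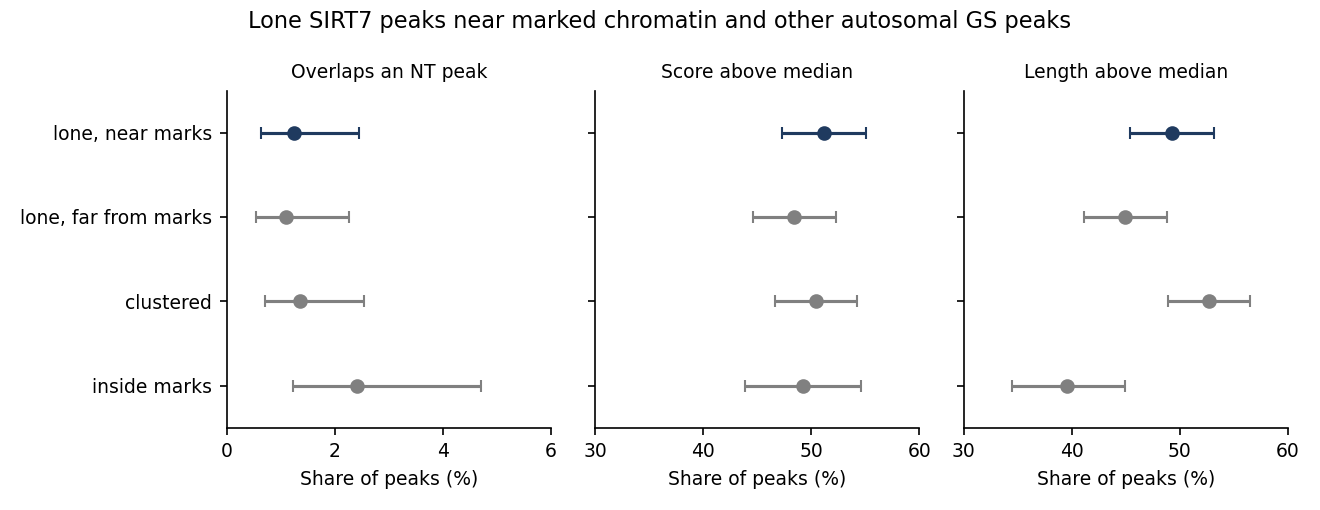
Shares of peaks (percent, x axis) that overlap an NT peak, have a score above the GS median, or are longer than the GS median, for the 639 lone peaks near marks (dark) and the 3 other autosomal classes (grey), with Wilson 95% intervals as bars. The intervals of the 4 classes overlap except in length. There the peaks inside marks, at 39.6%, lie below the members, at 49.3%, and below the clustered peaks, at 52.7%. The lower limit of the clustered peaks, 48.91%, also lies just above the upper limit of the lone peaks far from marks, 48.85%.

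The longest members were 56410764 to 56415838 on chromosome 6 with 5075 bp and 103890229 to 103895164 on chromosome 9 with 4936 bp. Next came 106050899 to 106055401 on chromosome 13 with 4503 bp, 77574289 to 77578497 on chromosome 2 with 4209 bp, and 83364940 to 83369141 on chromosome 13 with 4202 bp. These 5 had state U1 in each segmentation. The longest, with a score of only 547, lay 99.5 kb from a mark in KO-GS, 10.5 kb in WT-GS, 98.7 kb in KO-NT and 81.1 kb in WT-NT. The marked run beside it in WT-GS was 3.4 kb long, and its nearest bin was U3. The other 4 lay within 23 kb of a mark in all 4 segmentations.

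Every autosome held members, from 10 on chromosome 19 to 61 on chromosome 1. Set against the length of WT-GS U1 sequence less than 50 kb from marks, there were 0.684 members per Mb overall and 0.682 ± 0.159 per Mb by chromosome (SD, n = 19 chromosomes, a spread along the genome and not between cultures). Chromosome 19 had the lowest value, 0.392 per Mb, and chromosome 17 the highest, 1.00 per Mb. With clustered peaks included, U1 sequence near marks held 929 GS peaks (0.995 per Mb), against 1012 (1.31 per Mb) in U1 sequence 50 kb or more from marks, and the sequence near marks was the denser on 5 of 19 chromosomes.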

How the data were processed

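SIRT7, H3K27me3 and macroH2A1.1 were measured by ChIP-seq in MEFs. The submitters' processing notes name the builds mm9 and hg19 and, with no role given, MACS 1.4.2, Bowtie, deepTools 2.4.2, SAMtools 0.1.19, Trimmomatic 0.36 and FastQC 0.11.3. The authors deposited 1 SIRT7 peak list per treatment, with a score per peak whose computation the sources used here do not give, and 1 state segmentation per genotype and treatment in 200 bp bins. The members and comparisons were chosen with earlier results of these data known.

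A peak was assigned the state that held the largest number of its bases, and distances ran from the midpoint to the nearest marked base. Members were set beside all WT-GS U1 bins under 50 kb from marks, and, for NT overlap, score and length, against 3 other classes of peaks by Fisher's exact test with Benjamini-Hochberg adjustment over 9 tests (scipy 1.17.1, statsmodels 0.14.6, pandas 2.3.3, numpy 2.4.6, Python 3.11.15). The distance and state code was tested on simulated peaks. Regions named in the text were those with the highest scores, every overlap with an NT peak, and the extremes of distance, marked share and length; exceptions are stated. Other lone and mark distances, score and run-length filters, states at the midpoint and leaving out chromosome 1 were tried as alternatives. A low share of marked bins cannot be told apart from low coverage, since read totals were not used here.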

Additional observations from a re-analysis of the deposited data

How the results depend on the processing

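Over 208 alternative values, 178 were called the same. A test had to keep its sign and its side of the threshold, and a share or median to stay within its interval. The number of members had to stay within a set factor of the main count. The number of members fell to 389 with scores at or above the median. With a limit of 25 kb to marks, the share with a mark within the limit was 83.07% in KO-GS, 82.87% in KO-NT and 87.2% in WT-NT, and the median distance 5.668, 7.242 and 4.975 kb. With 100 kb, the share in KO-GS was 90.67%, the medians were 21.24, 21.42 and 17.38 kb, and 93.09% were U1 in KO-NT. With every base U1, 97.82% were U1 in KO-GS and 93.12% in KO-NT. Ignoring marked runs under 1 kb gave a median of 14.73 kb in KO-GS and U2 nearest for 60.07%. Each alternative changed the members or the marks counted, and the cause of these moves was not tested.

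The excess of long peaks over those inside marks was 9.237 points at a lone distance of 200 kb, 2.815 with every base U1 and 7.579 without chromosome 1, with adjusted p of 0.0946, 0.67 and 0.294; over 9 alternatives it ran from 2.815 to 16.52 points, with adjusted p from 0.00356 to 0.67. Differences that changed sign had an adjusted p of 0.56 or more. For NT overlap these were -0.2424 points against far peaks (100 kb to marks), and 0.2598 (200 kb lone) and 0.08749 (without chromosome 1) against clustered peaks. For score they were -2.304 against far peaks (200 kb lone); -2.051 (50 kb lone), -0.9371 (200 kb lone), -0.2536 (25 kb to marks), -5.659 (high scores) and -0.7075 (without chromosome 1) against clustered peaks; and -0.2329 (200 kb lone) and -0.8538 (high scores) against peaks inside marks. The causes were not tested.

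No paired analysis was possible because each list and segmentation pools both replicates and carries no replicate number; leaving out a replicate was not run for the same reason. Unknown depth limits every statement on unmarked sequence.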

Other observations

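Marks stood more often close by at lower coordinates than at higher coordinates of the members. Leaving out members inside marks, a mark lay within 2 kb of the midpoint at lower coordinates for 73 members in KO-GS and at higher coordinates for 41. The same counts were 94 and 62 in WT-GS. Under NT they were 53 and 24 in KO-NT, with 93 and 43 in WT-NT. Clustered U1 peaks less than 50 kb from marks numbered 290. They gave 36 and 17 in KO-GS and 47 and 33 in WT-GS. In NT cells the counts were 27 and 12 in KO-NT, and 34 and 24 in WT-NT. This was seen after the values were plotted, has no test, and its cause was not tested.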
